A study of Mus musculus with 5 samples.

Results

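The 10 genes described here encode the receptors of the common gamma chain family and the kinases they use: the shared chain *Il2rg*, the partner chains *Il2ra*, *Il2rb*, *Il4ra*, *Il7r*, *Il9r*, *Il21r* and *Il15ra*, and the Janus kinases *Jak1* and *Jak3*. The rule took them by gene symbol, with earlier results of these data known, from the 47729 genes of the deposited count table. All 10 were found, and all 10 were among the 19011 genes that passed the filter on low counts. The lowest count of any of them in a library was 265 (*Il21r*, WT pool 5).

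RNA sequencing compared dermal group 2 innate lymphoid cells (dILC2s), tissue-resident lymphocytes without antigen receptors, between wild-type (WT) and *Rag1*-/- mice on the C57BL/6 background aged 8 to 13 weeks. The sorted cells of skin received no stimulation before RNA was taken. The WT group held 3 libraries (pools 5, 6 and 13) and the *Rag1*-/- group 2 (pools 2 and 7). Each pool joined the cells of 10 WT or 9 *Rag1*-/- mice by the study's methods, whereas the labels gave 16 *Rag1*-/- mice in all. *Rag1*-/- mice carry the deletion in every cell and have no mature T or B cells, so that the genotype of the dILC2s and the absence of these cells around them cannot be told apart. The labels called the cells of the *Rag1*-/- libraries type 3 innate lymphoid cells in 1 field and dILC2s in another.

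The common gamma chain is a signalling subunit shared by the receptors for IL-2, IL-4, IL-7, IL-9, IL-15 and IL-21. Each cytokine is recognised by a partner chain of its own, and IL-2 and IL-15 also share the beta chain encoded by *Il2rb*. JAK3 binds the common gamma chain and JAK1 the signalling partner chains, and together they phosphorylate STAT factors, STAT5 for IL-2, IL-7, IL-9 and IL-15 and STAT6 for IL-4. ILC2s depend on IL-7 for development and survival, and IL-2, IL-4 and IL-9 support their growth and cytokine production.

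The libraries held between 32939428 and 39477243 counts on genes, apart from *Rag1*-/- pool 2 with 8050562, in which 1 count equals 0.124 CPM (counts scaled to the total of the library), against at most 0.0304 CPM elsewhere. The targeted gene was not lower where the label said *Rag1*-/-, and *Rag1* had 5 and 48 counts in pools 2 and 7 against 4, 0 and 5 in WT pools 5, 6 and 13. The counts cover the whole gene and do not show whether these reads lie in the deleted stretch. The 32 pan-leukocyte genes of a marker list summed to 1152, 2769 and 2769 CPM in WT and to 8927 and 7838 CPM in *Rag1*-/-. In edgeR's quasi-likelihood test, 23 of its 31 tested genes were higher in *Rag1*-/-, and all 31 had a positive log2 fold change (*Evi2b* was at 0 in *Rag1*-/-). A list of 18 keratinocyte genes summed to between 30905 and 44382 CPM in WT and to 7601 and 17761 CPM in *Rag1*-/-. The summed ILC2 markers were 1336 to 2439 CPM in WT and 4256 to 5744 CPM in *Rag1*-/-. All 15 tested genes had a positive log2 fold change in edgeR's fit (14 with DESeq2), and 5 passed as higher. With libraries scaled on the leukocyte genes, 5 of the 15 were positive, 2 passed as lower and none as higher. The summed ILC3 markers were 57.9 to 96.3 and 344 to 448 CPM (*Ncr1* under 1 CPM in every library), the T cell markers 66.9 to 129 and 327 to 387 CPM (*Cd8a* and *Cd8b1* under 1 CPM in every library, *Cd8b1* at 0 in WT), and the NK and ILC1 markers 27.4 to 91.7 and 220 to 260 CPM (*Ncr1* and *Klra8* under 1 CPM in every library, *Klra8* at 0 in WT). Among the T cell markers, *Cd3g*, *Cd247*, *Trac* and *Trbc2*, which encode parts of the T cell receptor complex, passed as higher in *Rag1*-/- (log2 fold changes of 2.23, 1.71, 2.11 and 2.43 in edgeR's fit), while *Cd3e* and *Cd3d*, of the same complex, had 0.32 and 0.38 and did not pass. Mast cell markers summed to 141 to 278 and 422 to 569 CPM, of which *Kit*, a receptor that ILCs can also express, made up 52.9 to 179 and 336 to 534 CPM. The other 6 mast cell markers had negative log2 fold changes, and *Fcer1a* was under 1 CPM in every library. The sums of B cell (1.26 to 5.70 CPM over all libraries), myeloid (407 to 996), fibroblast (7412 to 13262) and endothelial markers (167 to 604) overlapped. Markers of the labelled cell type were thus present in every library, beside keratinocyte RNA that was more abundant in WT, and the part of these other cell types in the results was not tested.

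Transcripts of 8 of the 10 genes were higher in both *Rag1*-/- libraries than in every WT library, and the other 2, *Il15ra* and *Jak1*, overlapped. Over all genes tested, 21.9% were higher and 24% lower without overlap. *Il2rg*, *Il2rb*, *Il4ra*, *Il21r* and *Jak3* passed as higher in *Rag1*-/- dILC2s (5 of 10), and none of them did when the libraries were scaled on the leukocyte genes. The test was the quasi-likelihood test of edgeR, with Benjamini-Hochberg adjustment over all genes and calls at an adjusted p under 0.05 and a log2 fold change beyond 1 in either direction, and 3.57% of all genes tested passed as higher (5.73% in either direction). No gene of the family passed as lower, either at an unadjusted p under 0.05 or with DESeq2, where 2.16% (edgeR) and 6.56% (DESeq2) of all genes passed as lower. The median log2 fold change of the 10 genes was 2.03, beside 0.02 over all genes. In bulk RNA, fewer cells of a type and less RNA per cell cannot be told apart, and here the leukocyte genes moved with the family. With this leukocyte scaling, the median of all genes shifted to -2.15, that of the 10 genes was 0.013, no member passed as higher, and *Il15ra* and *Jak1* passed as lower. That scaling called 16 genes of the whole table higher (0.0842%) and 12803 lower (67.3%), against 679 and 411 in the main comparison, and DESeq2 called 1216 higher and 1248 lower. The leukocyte scaling was also less precise for the family. Standard errors of the log2 fold change ran from 0.71 (*Il2rg*) to 0.80 (*Il15ra*), against 0.20 (*Jak1*) to 0.52 (*Il9r*) with TMM.

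**Figure D1:**
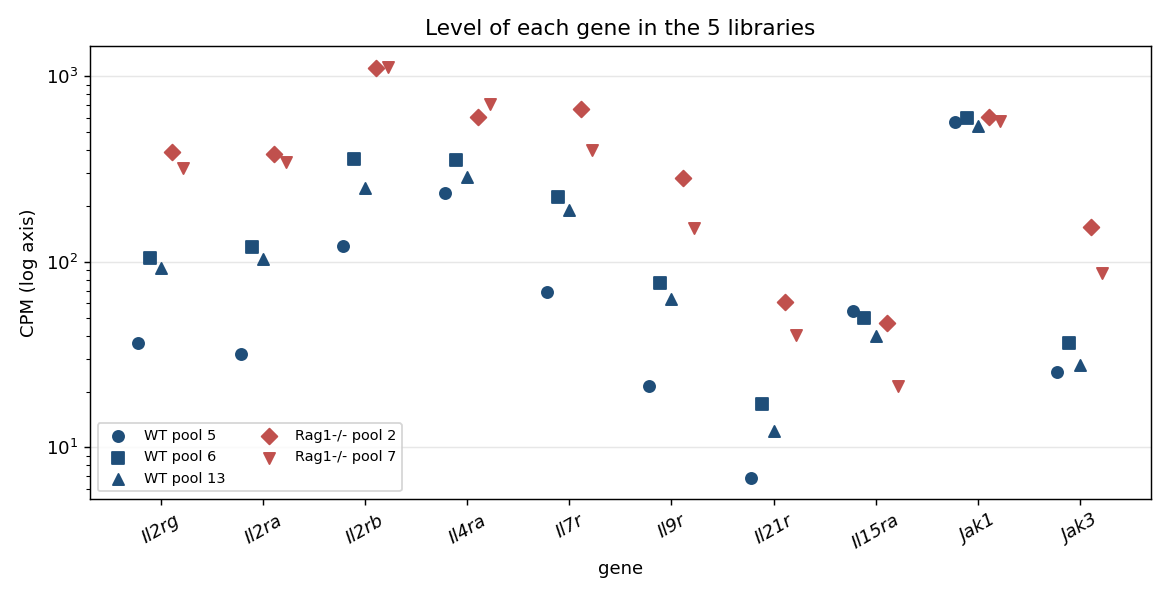
Level of each gene in CPM (log axis) in the 3 WT (blue) and 2 *Rag1*-/- libraries (red), 1 point per library. The red points lie above every blue point in 8 genes, and the points of *Il15ra* and *Jak1* overlap.

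With any of WT pools 5, 6 and 13 or *Rag1*-/- pool 2 left out, no gene of the whole table passed in edgeR's test, with smallest adjusted p-values of 0.0543, 0.0679, 0.109 and 0.0659 and between 3521 and 5200 genes at an unadjusted p under 0.05. Without *Rag1*-/- pool 7, 4 of the 10 genes passed (*Il2rg*, *Il2rb*, *Il21r* and *Jak3*), where 4.07% of all genes passed as higher, and *Il4ra* had a log2 fold change of 0.99 (edgeR adjusted p = 0.0603). Over the 5 fits with 1 library left out, the log2 fold change of the 8 genes that did not overlap stayed between 0.99 and 2.63. With DESeq2, 8 of the 10 genes passed, where 6.4% of all genes passed as higher. The 3 additional genes were *Il2ra*, *Il7r* and *Il9r*. The count was also 8 without a filter on low counts (3.87% of all genes higher), 7 with at least 10 counts in every library (6.06%) and 6 after thinning to the shallowest library (5.14%). It was 5 with RLE scaling, library size alone, limma on the deposited signal, a robust fit and the adjusted p alone, where 3.32%, 3.33%, 3.25%, 3.72% and 3.84% of all genes passed as higher.

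*Il2rg* encodes the common gamma chain (chromosome X of GRCm38, 101264378 to 101268255, minus strand). Its level was 36.7, 105 and 93.2 CPM in WT pools 5, 6 and 13 and 394 and 321 CPM in *Rag1*-/- pools 2 and 7. Both *Rag1*-/- libraries were above every WT library, and WT pool 5 was the lowest. *Il2rg* rose by 2.21 on the log2 scale (standard error, SE, 0.42, 95% interval 1.22 to 3.20, edgeR adjusted p = 0.0357), and with the leukocyte scaling the value was 0.30 (adjusted p = 0.698). The level spanned 10.7-fold over the 5 libraries and 2.88-fold among the WT pools. *Gm20489*, an annotated gene that shares 728 exon bases with *Il2rg*, had 0 counts in every library, and reads of the shared stretch cannot be told apart between them.

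The promoters of 9 of the 10 genes were in the RefSeq table used (GRCm38.p6), each as the 250 bases before a transcription start. They are shown for 4 genes: the shared chain, the receptor chain of IL-7, and the neighbours *Il2ra* and *Il15ra*, whose transcripts differed in behaviour. For *Il2ra* and *Il7r*, the bases just after the start were not found in a GENCODE transcript of the gene, so these starts differ from that annotation or remain unchecked. Capitals mark 4 short motifs searched on both strands in 32536 promoter windows of the same length. The motif of STAT factors, TTCNNNGAA, occurred in 7.04% of all windows. The ETS motif was searched as CGGAAG and occurred in 13.7% of them. For GATA factors the letters were AGATAA, present in 9.97% of windows. The RUNX motif, with the letters TGTGGT, was present in 14% of windows, and no matches of different motifs overlapped in the members' windows.
*Il2rg* (chrX:101268256-101268505, minus strand): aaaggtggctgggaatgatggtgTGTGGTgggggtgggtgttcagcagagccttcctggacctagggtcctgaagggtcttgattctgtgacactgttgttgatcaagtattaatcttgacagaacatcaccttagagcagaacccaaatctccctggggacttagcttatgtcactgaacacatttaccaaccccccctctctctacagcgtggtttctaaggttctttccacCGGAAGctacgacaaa
*Il7r* (chr15:9529877-9530126, minus strand): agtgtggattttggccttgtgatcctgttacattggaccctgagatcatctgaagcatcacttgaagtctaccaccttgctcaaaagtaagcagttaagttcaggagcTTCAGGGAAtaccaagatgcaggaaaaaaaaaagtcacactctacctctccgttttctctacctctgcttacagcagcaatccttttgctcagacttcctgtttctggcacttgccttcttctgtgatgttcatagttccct
*Il2ra* (chr2:11642542-11642791, plus strand): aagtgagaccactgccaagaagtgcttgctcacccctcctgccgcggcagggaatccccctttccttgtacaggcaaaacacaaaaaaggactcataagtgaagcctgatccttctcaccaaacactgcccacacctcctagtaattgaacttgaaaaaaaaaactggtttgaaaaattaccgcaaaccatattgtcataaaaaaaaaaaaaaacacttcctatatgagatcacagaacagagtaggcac
*Il15ra* (chr2:11705043-11705292, plus strand): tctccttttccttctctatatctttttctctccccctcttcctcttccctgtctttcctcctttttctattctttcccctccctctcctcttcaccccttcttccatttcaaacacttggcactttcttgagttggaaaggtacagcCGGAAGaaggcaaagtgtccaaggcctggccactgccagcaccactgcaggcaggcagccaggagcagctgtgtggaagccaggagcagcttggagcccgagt

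The *Il2rg* window held a RUNX motif 227 bases and an ETS motif 16 bases before the start. The only STAT motif among the members' windows was that of *Il7r*, 142 bases before the start. *Il15ra* held an ETS motif 103 bases before its first listed start, and none in the window of its other start. Of the windows not shown, *Jak1* held an ETS motif, *Il21r* a RUNX motif, and *Il9r* a RUNX motif and 2 GATA motifs. None of the 4 motifs was found in the windows of *Il2ra*, *Il4ra* and *Jak3*. No motif was held by all genes that passed as higher, and a match describes letters, not binding.

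*Il2rb*, the beta chain of the IL-2 and IL-15 receptors (chromosome 15, 78480553 to 78495066, minus strand), had the highest mean level per length of all receptor chains in both genotypes. Its level was 122, 358 and 252 CPM in WT and 1112 and 1131 CPM in *Rag1*-/- dILC2s. The *Rag1*-/- libraries lay close together and above all WT libraries. *Il2rb* rose by 2.23 on the log2 scale (SE 0.42, 95% interval 1.24 to 3.22, edgeR adjusted p = 0.0353), and the value was 0.31 with the leukocyte scaling (adjusted p = 0.692).

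*Il2ra*, which encodes CD25, the chain that gives the IL-2 receptor its high affinity (chromosome 2, 11642807 to 11693193, plus strand), followed *Il2rb* in its levels but did not pass the threshold. It had 31.9, 121 and 104 CPM in WT and 383 and 344 CPM in *Rag1*-/-, without overlap. The log2 fold change was 2.11 (SE 0.50, 95% interval 0.94 to 3.29, edgeR adjusted p = 0.0533), and *Il2ra* passed with DESeq2 (2.09, adjusted p = 0.000784).

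*Il15ra*, the chain that binds IL-15 and presents it to neighbouring cells, starts 12.1 kb beyond the end of *Il2ra* on the same strand (11705290 to 11734317), with no annotated gene between them. Its level was 54.1, 49.6 and 39.7 CPM in WT and 46.8 and 21.4 CPM in *Rag1*-/- dILC2s. The groups overlapped, *Rag1*-/- pool 7 was the lowest library, and WT pool 5, the lowest in *Il2ra*, was the highest. The log2 fold change was -0.48 (SE 0.33, 95% interval -1.26 to 0.31, edgeR adjusted p = 0.414), and with the leukocyte scaling *Il15ra* passed as lower (-2.73, adjusted p = 0.00404). Per transcript length, the ratio of *Il2ra* to *Il15ra* was 0.259, 1.07 and 1.15 in WT and 3.59 and 7.07 in *Rag1*-/- libraries. The neighbours thus changed their order between WT pool 5 and the other libraries, and the ratio did not overlap between genotypes. The share of gene pairs without overlap was not counted.

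*Il7r* encodes the alpha chain of the IL-7 receptor, which also serves the TSLP receptor (chromosome 15, 9506161 to 9529876, minus strand). It had 68.9, 224 and 190 CPM in WT and 667 and 401 CPM in *Rag1*-/- dILC2s. The groups did not overlap, and the *Rag1*-/- libraries differed from each other by 1.66-fold. The log2 fold change was 1.75 (SE 0.48, 95% interval 0.62 to 2.88, edgeR adjusted p = 0.0746), which did not pass, and *Il7r* passed with DESeq2 (1.73, adjusted p = 0.00495). With the leukocyte scaling its direction turned (-0.15, edgeR adjusted p = 0.851).

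*Il4ra*, the chain of the IL-4 receptor that also forms the IL-13 receptor (chromosome 7, 125552120 to 125579474, plus strand), had the smallest difference of the genes that passed. Its level was 236, 356 and 286 CPM in WT and 605 and 709 CPM in *Rag1*-/-. The WT pools lay within 1.51-fold of each other and below both *Rag1*-/- libraries. *Il4ra* rose by 1.20 on the log2 scale (SE 0.25, 95% interval 0.61 to 1.79, edgeR adjusted p = 0.0401), and the direction turned with the leukocyte scaling (-0.88, adjusted p = 0.265).

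*Il21r*, the receptor chain of IL-21, lies 24.0 kb from *Il4ra* on the same strand (125603429 to 125633570), with no annotated gene between them. Per length it was the least abundant receptor chain in every WT library. It had 6.83, 17.1 and 12.3 CPM in WT and 60.9 and 40.3 CPM in *Rag1*-/- dILC2s. The groups did not overlap, and *Il21r* rose by 2.08 on the log2 scale (SE 0.39, 95% interval 1.17 to 2.99, edgeR adjusted p = 0.0336). With the leukocyte scaling the value was 0.12 (adjusted p = 0.885). Per length, *Il4ra* exceeded *Il21r* by 11.98, 7.20 and 8.09 times in WT and by 3.45 and 6.10 times in *Rag1*-/- libraries, without overlap. How many gene pairs had no overlap was not counted.

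*Il9r*, the receptor chain of IL-9, a growth factor of ILC2s (chromosome 11, 32187541 to 32200279, minus strand), had 21.4, 77.3 and 63.1 CPM in WT and 284 and 152 CPM in *Rag1*-/- dILC2s. It had the widest span of the family, 13.3-fold over the 5 libraries, and no overlap between the groups. The log2 fold change was 2.03 (SE 0.52, 95% interval 0.82 to 3.25, edgeR adjusted p = 0.0631), which did not pass, and *Il9r* passed with DESeq2 (2.01, adjusted p = 0.00197).

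The kinases differed from each other. *Jak3*, whose product binds the common gamma chain (chromosome 8, 71676296 to 71690575, plus strand), had 25.4, 36.5 and 27.7 CPM in WT and 153 and 87.3 CPM in *Rag1*-/- dILC2s. Both *Rag1*-/- libraries were above all WT libraries, and *Jak3* rose by 2.03 on the log2 scale (SE 0.28, 95% interval 1.36 to 2.70, edgeR adjusted p = 0.0306). With the leukocyte scaling the value was -0.09 (adjusted p = 0.908). *Jak3* shares 404 exon bases with *Insl3*, which had between 15 and 43 counts in every library.

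*Jak1*, used by all receptors of the family and by many others, and expressed by most cell types (chromosome 4, 101152367 to 101265282, minus strand), had 565, 598 and 541 CPM in WT and 607 and 576 CPM in *Rag1*-/- libraries. The groups overlapped and the 5 libraries spanned 1.12-fold, the narrowest of the 10 genes. Its log2 fold change was 0.09 (SE 0.20, 95% interval -0.38 to 0.56, edgeR adjusted p = 0.829), an interval that excludes the fold threshold, and with the leukocyte scaling *Jak1* passed as lower (-2.09, adjusted p = 0.0174). Per length, the ratio of *Jak3* to *Jak1* was 0.0550, 0.0746 and 0.0626 in WT and 0.309 and 0.186 in *Rag1*-/- libraries, without overlap. With *Jak1* nearly level, this ratio restates the difference in *Jak3*, and the share of gene pairs without overlap was not counted.

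**Figure D2:**
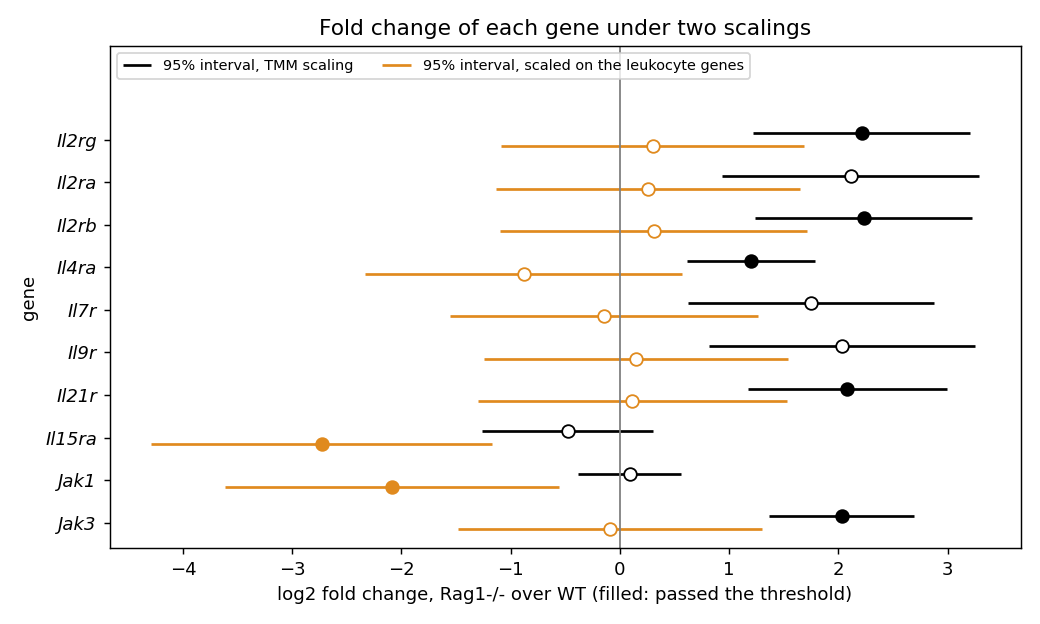
Log2 fold change of each gene, *Rag1*-/- over WT, with its 95% interval from edgeR's quasi-likelihood fit, under TMM scaling (black) and with libraries scaled on the leukocyte genes (orange). Filled points passed the threshold: 5 genes under TMM, and under the leukocyte scaling *Il15ra* and *Jak1*, both lower, while *Il4ra*, *Il7r*, *Jak1* and *Jak3* changed sign.

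Ratios within a library were described without a test, since 3 libraries against 2 allow 10 splits and an exact permutation test cannot reach 0.05. Relative to *Il2rg* and per transcript length, *Il2rb* was 2.06, 2.11 and 1.67 in WT and 1.75 and 2.19 in *Rag1*-/- libraries. *Il2ra* was 0.330, 0.434 and 0.424 in WT and 0.369 and 0.406 in *Rag1*-/-. Each of these chains of the IL-2 receptor thus kept its ratio to *Il2rg* within 1.32-fold over the 5 libraries, while their levels spanned 9.30-fold (*Il2rb*) and 12.02-fold (*Il2ra*), and the groups overlapped in both ratios. The ratio of *Il2ra* to *Il2rb* per length also overlapped (0.160, 0.206 and 0.253 in WT, 0.210 and 0.186 in *Rag1*-/-). A steady ratio was not particular to these chains, as *Il2rg* relative to the summed leukocyte genes spanned 1.39-fold over the 5 libraries.

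*Il7r* relative to *Il2rg* was 0.979, 1.11 and 1.06 in WT and 0.883 and 0.652 in *Rag1*-/- libraries, lower without overlap. *Il4ra* relative to *Il2rg* was 2.05, 1.07 and 0.976 in WT and 0.489 and 0.702 in *Rag1*-/-, also lower without overlap. The same held for *Il15ra* (0.368 to 1.27 in WT, 0.0575 and 0.103 in *Rag1*-/-) and *Jak1* (1.93 to 5.24 and 0.525 to 0.611). *Il9r*, *Il21r* and *Jak3* overlapped in this ratio. The share of all genes that were lower without overlap relative to *Il2rg* was not counted. *Il2rg* itself rose by 2.21 on the log2 scale, where the median of all genes was 0.02 (edgeR). In WT pool 5 the ratios of *Il4ra*, *Il21r*, *Il15ra*, *Jak1* and *Jak3* to *Il2rg* were the highest of all libraries, and this library also had the lowest sum of leukocyte genes and the highest of keratinocyte genes; their part in the ratios was not tested.

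**Figure D3:**
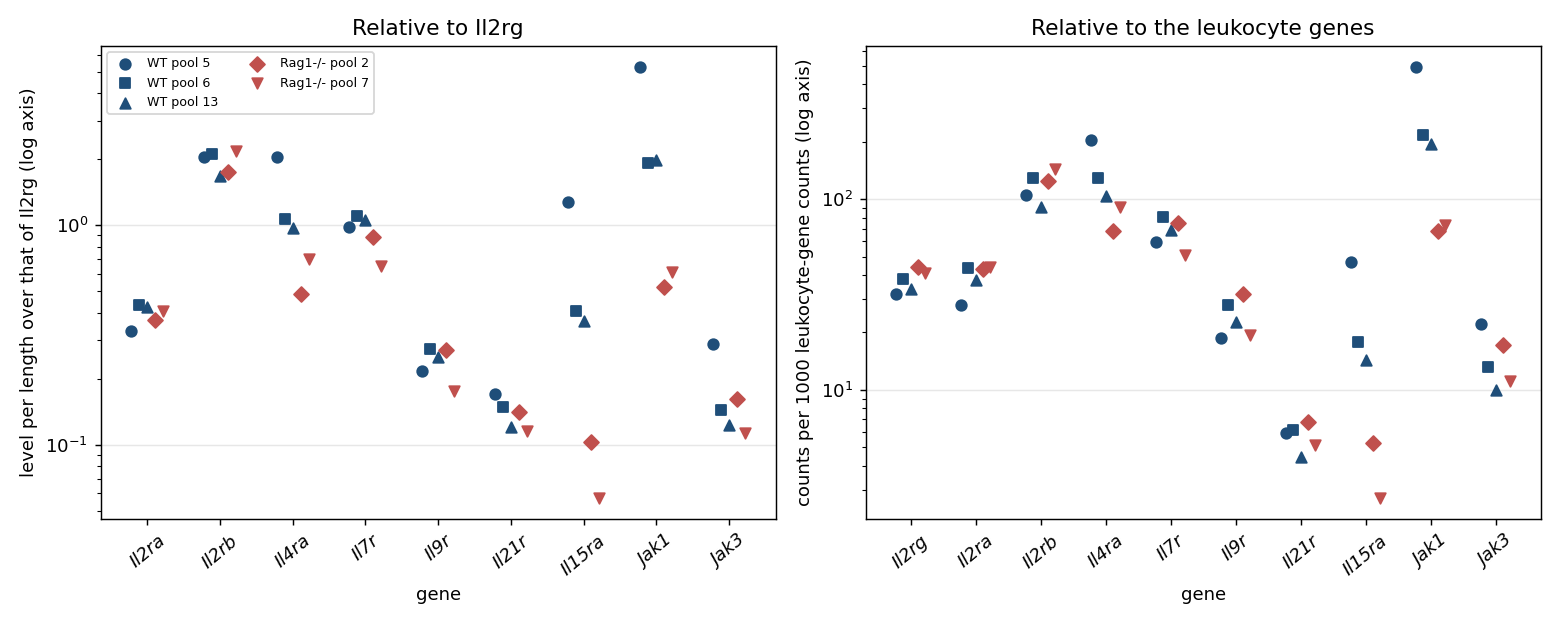
Left, level per transcript length over that of *Il2rg* (log axis). Right, counts per 1000 counts on the leukocyte genes (log axis), 1 point per library in both panels. *Il15ra*, *Jak1* and *Il4ra* lie lower in the *Rag1*-/- libraries (red) than in WT (blue) in both panels, while *Il2ra* and *Il2rb* overlap.

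Per 1000 counts on the leukocyte genes, *Il2rg* had 31.8, 38.1 and 33.7 counts in WT and 44.1 and 40.9 in *Rag1*-/- libraries, the only member that was higher without overlap on this scale, by 1.23-fold. *Il15ra* had 47.0, 17.9 and 14.3 counts in WT and 5.25 and 2.72 in *Rag1*-/-. *Jak1* had 490, 216 and 195 counts in WT and 68.0 and 73.4 in *Rag1*-/-. *Il4ra* had 205, 129 and 103 counts in WT and 67.8 and 90.4 in *Rag1*-/-. These 3 genes were lower without overlap, and the other 6 overlapped. The share of all genes without overlap on this scale was not counted. In edgeR's fit with the leukocyte scaling, 67.3% of all genes passed as lower and 0.0842% as higher.

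Within the family, the summed level was 1168, 1943 and 1609 CPM in WT and 4314 and 3781 CPM in *Rag1*-/- libraries, a ratio of 2.57 between the group means. *Jak1* took 48.4%, 30.8% and 33.6% of the members' counts in WT and 14.1% and 15.2% in *Rag1*-/- libraries. *Il2rb* took 10.4%, 18.4% and 15.6% in WT and 25.8% and 29.9% in *Rag1*-/-. The largest share thus belonged to *Jak1* in each WT library and to *Il2rb* in both *Rag1*-/- libraries. The leukocyte genes summed to at most 2769 CPM in WT and at least 7838 CPM in *Rag1*-/- libraries. The keratinocyte genes summed to at least 30905 CPM in WT and at most 17761 CPM in *Rag1*-/- libraries. The part of these cell types in the shares was not tested.

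Levels between genes were compared per length, as CPM per kilobase of the deposited transcript length. In WT the order of the means ran from *Jak1* (116 ± 5.87, SD, n = 3) and *Il2rb* (90.5 ± 44.0) over *Il4ra*, *Il7r*, *Il2rg*, *Il15ra*, *Il2ra* and *Il9r* to *Jak3* (7.44 ± 1.46) and *Il21r* (6.63 ± 2.83). Only 2 pairs of neighbours, *Il2rb* above *Il4ra* and *Il2ra* above *Il9r*, kept their order in all 3 WT libraries. With exon union lengths, 5 pairs of neighbours did, and *Il2rb* was above *Il4ra* in 2 of 3 WT libraries. In *Rag1*-/- dILC2s it ran from *Il2rb* (417 ± 4.93, SD, n = 2) and *Il2rg* (214 ± 30.9) over *Il7r*, *Il4ra*, *Jak1*, *Il2ra*, *Il9r*, *Jak3* and *Il21r* to *Il15ra* (17.6 ± 9.31). Here *Il7r* and *Il4ra*, *Il4ra* and *Jak1*, and *Jak3* and *Il21r* exchanged places between the libraries, and the other 6 pairs of neighbours kept their order. With exon union lengths, *Il7r* and *Il4ra* were the only neighbours that exchanged places. *Jak1* stood first in the WT mean and after *Il2rb*, *Il2rg*, *Il7r* and *Il4ra* in the *Rag1*-/- mean, at a level of similar size (121 ± 4.54, SD, n = 2).

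The genes outside the family whose profile over the 5 libraries was most like that of *Il2rg* were *Rgs14*, *Sept1*, *Il13*, *Itgae* and *Bin2*, among tested genes with a mean of at least 10 CPM. Their root mean square difference from *Il2rg*, in log2 CPM centred on each gene's mean, ran from 0.0246 (*Rgs14*) to 0.0916 (*Bin2*). These points share their libraries and their depth, and the values are a description.

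The cytokines that bind these receptors were at low levels. *Il2* had 1.11, 4.36 and 5.71 CPM in WT and 13.04 and 12.79 CPM in *Rag1*-/- libraries, without overlap, and its log2 fold change was 1.83 (SE 0.60, edgeR adjusted p = 0.111). *Il15* had 4.66 to 6.50 CPM in WT and 6.46 and 8.71 CPM in *Rag1*-/- (log2 fold change 0.52, edgeR adjusted p = 0.342). *Il4* reached 6.32 CPM and *Il7* 6.25 CPM at most, and *Il9* and *Il21* were under the filter with at most 9 and 3 counts. Of the 4 cytokine genes tested none passed in edgeR's test, 3 had an unadjusted p under 0.05, and DESeq2 called 1 higher and 1 lower.

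Of the 5 genes of related receptors and ligands, 2 rose and 1 fell (edgeR). *Crlf2*, the TSLP receptor chain that pairs with *Il7r*, had 20.2, 23.3 and 22.8 CPM in WT and 51.2 and 60.1 CPM in *Rag1*-/-, and rose by 1.37 on the log2 scale (SE 0.19, edgeR adjusted p = 0.0306). *Il13ra1*, the chain that pairs with *Il4ra* in a receptor of IL-13, had 309, 281 and 288 CPM in WT and 91.0 and 139 CPM in *Rag1*-/- libraries. It fell by 1.31 on the log2 scale (SE 0.25, edgeR adjusted p = 0.0368). The IL-13 gene *Il13* rose by 2.36 (edgeR adjusted p = 0.0309). The partners of *Il7r* and of *Il4ra* outside the family thus went in opposite directions, whereas with the leukocyte scaling none of the 5 genes passed as higher and 3 passed as lower.

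The other Janus kinases lay between *Jak1* and *Jak3* in their difference. *Tyk2* had 50.5, 58.8 and 51.9 CPM in WT and 138 and 86.0 CPM in *Rag1*-/-, and rose by 1.08 on the log2 scale (SE 0.23, edgeR adjusted p = 0.0433). *Jak2* had 334 to 604 CPM in WT and 1073 and 690 CPM in *Rag1*-/- (log2 fold change 0.87, edgeR adjusted p = 0.143). Of the STAT genes that these receptors use, *Stat6* (0.91, adjusted p = 0.0436) and *Stat5a* (0.85, adjusted p = 0.0495) were under the threshold on the fold change, and *Stat5b* (0.59, adjusted p = 0.114) and *Stat3* (0.19, adjusted p = 0.640) did not reach the edgeR threshold on p. With the leukocyte scaling neither *Tyk2* nor *Jak2* passed as higher, and their median was -1.12.

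Downstream of the receptors, 4 of 15 adaptor and kinase genes rose and none fell by edgeR (6 of the 8 with an unadjusted p under 0.05 were positive, and DESeq2 called 1 lower). They were *Lck* (2.47), a lymphocyte kinase bound by the IL-2 receptor beta chain, *Pik3cd* (2.20), the leukocyte catalytic subunit of PI3K, *Ptk2b* (1.48) and the adaptor *Grb2* (1.22), each value a log2 fold change. Of 9 negative regulators, *Socs1* (1.74), *Cish* (1.25) and *Socs2* (1.13), feedback inhibitors induced by STAT5, rose. *Cish* had 147, 221 and 160 CPM in WT and 408 and 409 CPM in *Rag1*-/- libraries, without overlap. Of 10 genes linked to STAT5 as targets, *Lta* (2.37), *Osm* (2.19), the kinase *Pim2* (1.73) and the survival gene *Bcl2l1* (1.28) rose, and *Myc* fell by 1.10 on the log2 scale. *Myc* had 268, 237 and 229 CPM in WT and 107 and 117 CPM in *Rag1*-/-. All 3 lists lost their positive medians with the leukocyte scaling (-1.87, -1.56 and -1.20, where all genes stood at -2.15), and no gene of them passed as higher there.

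**Figure D4:**
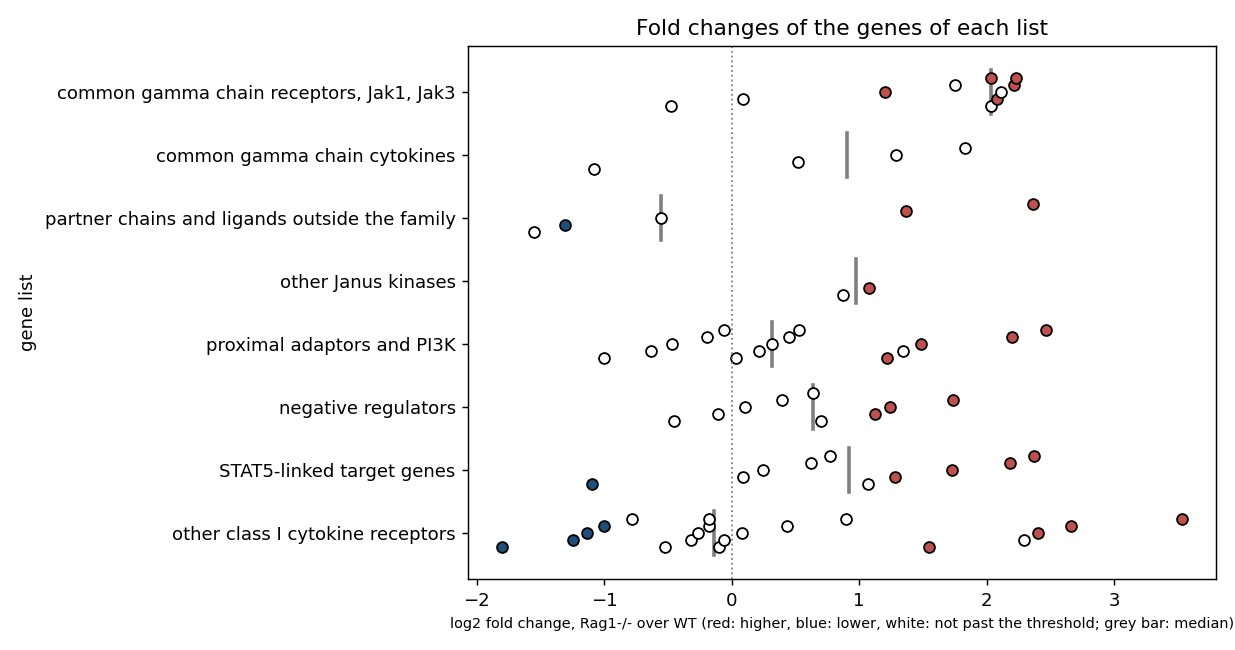
Log2 fold change of every tested gene of the family and of 7 related lists, *Rag1*-/- over WT (edgeR, TMM scaling). Red points passed as higher, blue as lower, white did not pass, and the grey bar is the median of the list, 2.03 for the family (0.013 with the leukocyte scaling) and -0.14 for the other class I receptors.

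The other class I cytokine receptors, which use the same receptor fold without the common gamma chain, served as the comparison. Of 22 genes 20 were tested, of which 4 rose and 4 fell (edgeR), with a median log2 fold change of -0.14, against 5 and none of the 10 family genes and a median of 2.03. With the leukocyte scaling, 14 of the 20 passed as lower and none as higher. The difference between the lists was not tested. Those that rose were *Il23r* (3.53), *Il12rb1* (2.66), *Il27ra* (2.41) and *Il3ra* (1.54). *Il23r*, a receptor chain of type 3 lymphocytes, had 1.16, 1.29 and 1.40 CPM in WT and 17.0 and 12.2 CPM in *Rag1*-/- libraries, and it was also among the ILC3 markers. *Prlr*, *Lifr*, *Osmr* and *Ghr*, receptors of hormones and of the IL-6 family that are expressed by skin cells, fell by 1.80, 1.25, 1.14 and 1.01 on the log2 scale. The summed keratinocyte genes were lower in the same libraries (30905 CPM or more in WT, 17761 CPM or less in *Rag1*-/-), and their part in their difference was not tested.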

How the data were processed

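RNA of sorted dILC2s was measured in 5 libraries. Libraries were made from poly(A) RNA with a kit that does not mark strand, so reads of overlapping genes on opposite strands (*Gm44876* for *Il4ra*, *Raver2* for *Jak1*) cannot be told apart. By the submitters' processing notes STAR 2.5 and featureCounts 1.5.0-p1 were used, and the authors deposited raw counts per gene (GRCm38), which were used for all main results, and a normalized signal per gene, used in 1 alternative. Transcript lengths came from the deposited table. A symbol on several rows was represented by the row with most counts.

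Groups followed the titles in the labels. Genotypes were compared over all 5 libraries by quasi-likelihood in edgeR 4.0.16 (R 4.3.3), after filterByExpr and TMM scaling. P-values were adjusted by Benjamini-Hochberg over 19011 genes, and calls needed an adjusted p under 0.05 and a log2 fold change beyond 1 either way. The SE is the log2 fold change divided by the square root of F. Depth ranged from 8050562 to 39477243 counts, which sets the precision of low values. The test was also run on simulated counts with 200 changed genes. These counts held no shift in cell composition, so that check could not show how calls depend on such a shift.

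The members, gene lists and tests were chosen with earlier results of these data known. All 10 members were named, with called genes of each related list (at most 6, by smallest p), the 2 most abundant genes of a list without calls, and the 5 genes most like *Il2rg* (prior count 2). *Il4*, *Il7*, *Il9*, *Il21*, *Jak2*, *Stat3*, *Stat5a*, *Stat5b*, *Stat6*, *Il27ra*, *Ghr*, *Kit*, the genes of the T cell receptor complex and the markers at or near 0 were named after their values were seen. Alternatives were DESeq2 1.42.0, limma 3.58.1 on log2 of the signal (pseudocount 1), 3 other scalings (RLE, total counts, leukocyte genes), 2 other filters (none, or 10 counts in each library), a robust fit, thinning to 8050562 counts, the adjusted p alone, and each library left out. An exon union length was added after seeing the data. Promoter sequences were taken from RefSeq (GRCm38.p6). 1 gene of the related lists is not reported here. Flow cytometry was not analysed here.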

Additional observations from a re-analysis of the deposited data

How the results depend on the processing

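The WT and *Rag1*-/- pools came from different mice and the labels named no pairs, so no paired analysis was made. The number of family genes that passed, 5, was 8 with DESeq2 and with no filter and 2 (both lower) with the leukocyte scaling, and ranged from 0 to 4 with 1 library left out. It was 7 with at least 10 counts in every library, 6 after thinning, and 5 in the other settings. Over all genes, 1090 passed, against 2464 with DESeq2, 2645 with no filter, 12819 with the leukocyte scaling, and 0 to 2409 with 1 library left out. Where 0 passed, 3521, 3735, 3874 and 5200 genes had an unadjusted p under 0.05 in edgeR (without WT pool 5, 6 or 13, or *Rag1*-/- pool 2). Of the related lists, 25 genes passed, between 25 and 36 in the other settings and 0 to 24 with 1 library left out. The 36 came from the leukocyte scaling, where every passing gene of the related lists was lower, whereas most of the 25 were higher. Of 90 log2 fold changes of the members under other settings, 73 kept direction and call, 10 newly passed and 3 no longer passed. The other 4 reversed, all with the leukocyte scaling: *Il4ra* (-0.88), *Il7r* (-0.15), *Jak1* (-2.09) and *Jak3* (-0.0896). By construction that scaling sets the sum of the leukocyte genes equal between libraries. With 1 library left out, 29 of 50 kept direction and call and 21 no longer passed, none reversed. A fit without 1 *Rag1*-/- library assumes that the lone library varies like WT. The ratio of the family's summed level, 2.57, was 2.62 with TMM library sizes, and the 5 genes most like *Il2rg* were shared with a prior count of 0.5. With exon union lengths, 7 of 10 places in the WT order and 10 of 10 in *Rag1*-/- were kept. With *Rag1*-/- pool 2 at 8050562 counts, its values are the least precise.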
